A study of Mus musculus with 50 samples.

Results

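Egr1, Egr2, Nr4a1, Nr4a2 and Klf10 are transcription factor genes that neurons switch on within minutes to hours of activity, and their transcripts were followed here in the neocortex and hippocampus of adult mice. The members were taken as every probe set whose single gene symbol in the platform annotation is one of these 5, which gave 8 of 12488 probe sets. Nr4a2 and Klf10 have 2 probe sets each, Egr1 has 2, and Egr2 and Nr4a1 have 1. The study hybridised 50 Affymetrix arrays, 25 of each tissue, from mice labelled S1P2-KO (10 arrays per tissue, 5 male and 5 female), S1P3-KO (5 per tissue, 2 male and 3 female) and wild type (WT, 10 per tissue, 5 male and 5 female), all 8 weeks old. S1P2 and S1P3 are receptors for the lipid sphingosine 1-phosphate, encoded by S1pr2 and S1pr3. Mice lacking S1P2 have sporadic seizures between weeks 4 and 7, mice lacking S1P3 do not, and the tissue was taken after that window. Allele and strain are not given in the sources used here, and the labels do not state whether a mouse gave both tissues.

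Egr1 and Egr2 are zinc-finger activators that bind GC-rich sites and are held back by the co-repressors Nab1 and Nab2, of which they induce Nab2 themselves. Nr4a1 (Nur77) and Nr4a2 (Nurr1) are orphan nuclear receptors whose activity is set mainly by how much of them is made; Nr4a2 is also a lasting marker of dopamine neurons and of cells in the claustrum and the deep cortical layers. Klf10 is a zinc-finger repressor first described as a gene induced by TGF-beta. In neurons, calcium entry and kinase signalling act on factors already bound at the promoters of such immediate early genes, mainly CREB at CRE sites and serum response factor with its Elk partners at CArG boxes, so the transcripts appear without new protein synthesis and decay quickly.

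The promoters are shown as background, because those of immediate early genes hold sites through which activity is known to act. The part of these sites in the signals was not tested. The RefSeq promoter table (GRCm38.p6) had entries for Egr2, Nr4a1 and Nr4a2. The 250 bases before the start are printed 5′ to 3′ on the gene's strand, with the CRE core TGACG (or its complement CGTCA) and the CArG box in capitals. Egr2 is at chr10:67537619-67537868 (plus strand), Nr4a1 at chr15:101266596-101266845 (plus strand) and Nr4a2 at chr2:57124004-57124253 (minus strand).
Egr2: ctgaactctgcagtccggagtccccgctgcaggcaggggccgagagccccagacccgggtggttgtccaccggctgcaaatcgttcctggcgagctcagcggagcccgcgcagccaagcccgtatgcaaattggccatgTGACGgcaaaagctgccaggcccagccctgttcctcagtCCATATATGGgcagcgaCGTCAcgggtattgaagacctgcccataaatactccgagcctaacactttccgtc
Nr4a1: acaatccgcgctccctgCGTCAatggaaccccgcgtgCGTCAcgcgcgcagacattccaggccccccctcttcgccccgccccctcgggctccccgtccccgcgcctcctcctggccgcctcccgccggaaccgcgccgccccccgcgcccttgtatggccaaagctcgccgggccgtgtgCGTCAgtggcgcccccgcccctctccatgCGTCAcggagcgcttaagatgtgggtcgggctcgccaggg
Nr4a2: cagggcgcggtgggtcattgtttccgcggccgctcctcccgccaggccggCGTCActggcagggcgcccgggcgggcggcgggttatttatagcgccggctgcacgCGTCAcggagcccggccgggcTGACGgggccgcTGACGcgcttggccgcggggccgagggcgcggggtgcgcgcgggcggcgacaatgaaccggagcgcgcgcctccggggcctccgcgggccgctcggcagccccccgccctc
Egr2 has 5 annotated starts, and the printed window overlaps 2 others that hold the same sites. It has a CArG box 72 bases before the start and CRE cores at 111 and 55 bases. The Nr4a1 window holds 4 CRE cores, at 233, 213, 69 and 40 bases, and the Nr4a2 window 4, at 200, 144, 123 and 111 bases. Over 32851 promoter windows of the same length, searched on both strands, 17.8% held a CRE core, 3.9% held 2 or more, 0.688% held 3 or more and 1.47% held a CArG box. Nr4a1 and Nr4a2 also hold an Egr site (GCGNGGGCG, in 4.7% of windows), at 60 and 74 bases, which overlaps a GC box (GGGCGG, in 32.7%) in both. These windows are GC-rich (61.6% in Egr2, 74.4% in Nr4a1, 80.0% in Nr4a2), and no motif was weighed against base composition. The full CRE palindrome TGACGTCA (1.55% of windows) and the Nr4a site AAAGGTCA (1.34%) were not among the letters of any of the 3 windows.

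Neither targeted gene was called in its own knockout; S1pr3 in S1P3-KO hippocampus came nearest. S1pr2 averaged 628.4 ± 147.4 in neocortex labelled S1P2-KO and 672.4 ± 137.4 in WT neocortex (SD, n = 10 each), with a log2 difference of -0.10 ± 0.14 (SE, limma adjusted p = 0.874). In hippocampus the S1P2-KO minus WT difference of S1pr2 was -0.24 ± 0.16 (limma adjusted p = 0.925). S1pr3 differed by -0.26 ± 0.17 in S1P3-KO neocortex (limma adjusted p = 0.638) and by -0.69 ± 0.18 in S1P3-KO hippocampus (95% CI -1.05 to -0.32, limma adjusted p = 0.164), where its highest S1P3-KO array stood at 551.9 and the WT median at 859.8. Whether these probe sets lie in a deleted stretch is not given in the sources used here, so each group below is the one its label names. The Y-linked transcript Eif2s3y matched the labelled sex on all 50 arrays. The summed signal of 7 neocortex markers ran from 5248 to 9748 in hippocampus and from 17251 to 24147 in neocortex, and that of 6 hippocampus markers from 8959 to 12500.5 in hippocampus and from 3323 to 4712 in neocortex. Choroid plexus markers varied most, with 933.7 to 38494 over the hippocampus arrays (medians 10128 in S1P2-KO, 1719.6 in S1P3-KO and 3853 in WT); their part in the results was not tested. Control transcripts probed at both ends gave a log2 ratio of 3′ over 5′ signal per array, which rises as RNA degrades. It exceeded 1 on 3 hippocampus arrays (S1P2-KO replicate 7 with 1.37, S1P3-KO replicate 5 with 4.46 and WT replicate 4 with 1.20). Its neocortex medians were 0.256 in S1P2-KO, 0.235 in S1P3-KO and 0.378 in WT.

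Signals are linear MAS5 intensities, scaled by the authors, and a gene is given by its brighter probe set. Because probe sets differ in how strongly they bind, signals are compared between arrays and not between genes. Differences are log2 values of signal + 30.7, with the SE from limma over 8534 probe sets and Benjamini-Hochberg adjustment over all of them, and a call means an adjusted p under 0.05. Of the 8 probe sets, 7 entered the tests. The second one of Egr1 was dim, with a mean of 110.3 and a level above the entry floor of 132.6 on 12 of 50 arrays. Its mean was 0.673 and 0.925 times that of WT in S1P2-KO neocortex and hippocampus. In S1P3-KO it was above WT, at 1.197 times in neocortex and 1.196 times in hippocampus. In whole tissue, fewer cells of a type and less RNA per cell cannot be told apart.

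All 5 genes had lower mean signals in both knockouts than in WT, in both tissues, and none of these differences passed the test. Of all probe sets, 51.6% had a difference below 0 in S1P2-KO neocortex, 50.4% in S1P3-KO neocortex, 50.9% in S1P2-KO hippocampus and 52.1% in S1P3-KO hippocampus. The smallest ratio of means was that of Nr4a1 in S1P2-KO hippocampus, at 0.455 times WT. Egr2 had a mean 0.459 times that of WT in S1P2-KO neocortex, 0.554 times in S1P3-KO neocortex, 0.477 times in S1P2-KO hippocampus and 0.475 times in S1P3-KO hippocampus. Klf10 in S1P3-KO hippocampus was nearest to WT, at 0.943 times. Both knockouts were set against the same WT arrays, so their differences are not independent of each other. The 5 genes were chosen with earlier results of these data known, and many of their pairs varied together between arrays. Counts of them below are therefore not counts of separate results.

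**Figure D1:**
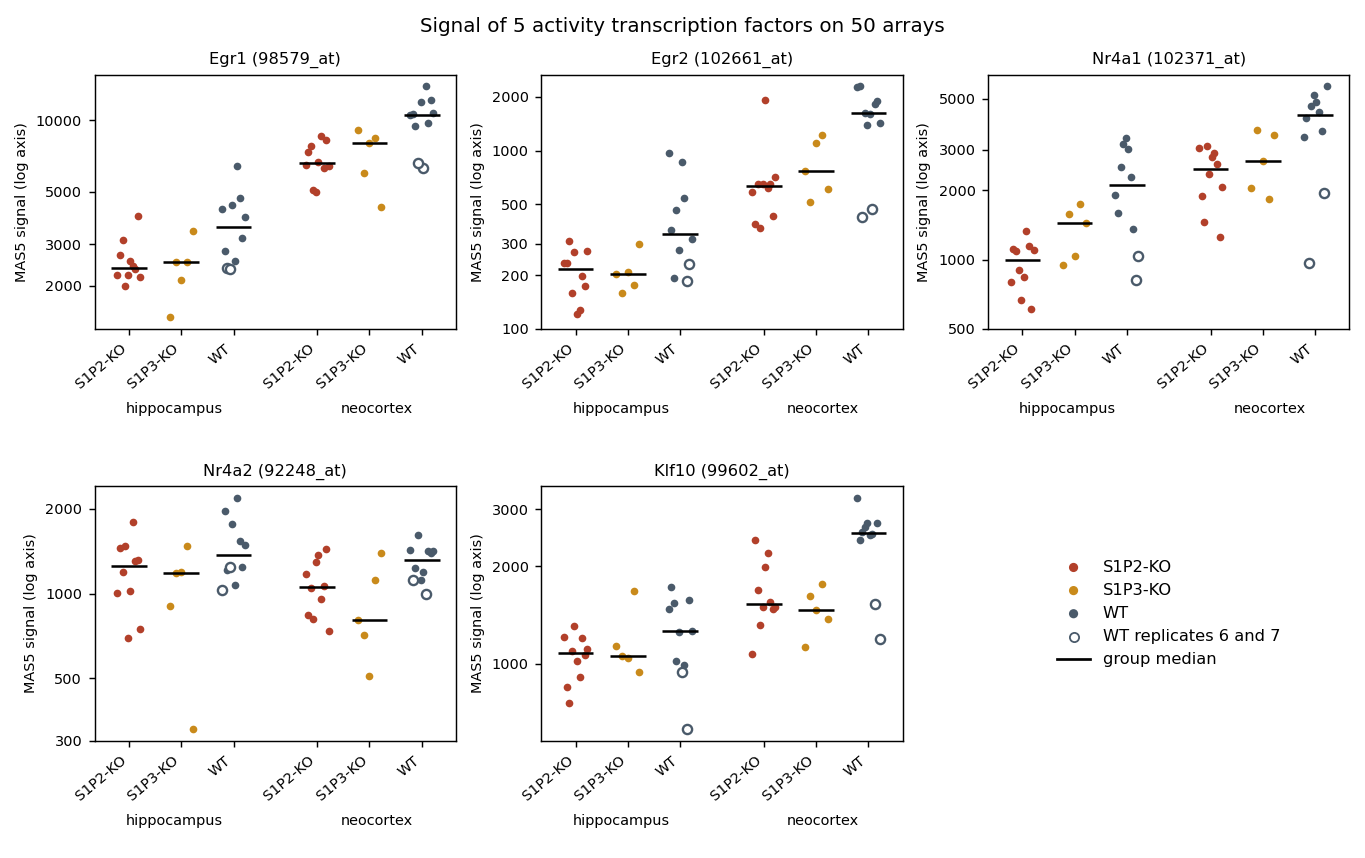
MAS5 signal of each gene on every array (log axis), with S1P2-KO, S1P3-KO and WT arrays from left to right, hippocampus left of neocortex, and a bar at each group's median. Open circles are WT replicates 6 and 7, whose neocortex arrays hold the 2 lowest WT signals of all 5 genes; Egr1 medians are 6593, 8008.5 and 10596 in S1P2-KO, S1P3-KO and WT neocortex.

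Egr1 in neocortex had signals of 4976, 6593 and 8587 in S1P2-KO (lowest, median, highest), against 6297, 10596 and 13971 in WT. All 10 S1P2-KO arrays lay below the WT median and 8 of 10 WT arrays lay above every S1P2-KO array, while the 2 lowest WT arrays fell inside the S1P2-KO range. The Egr1 difference was -0.57 ± 0.14 (95% CI -0.86 to -0.28, limma adjusted p = 0.194), which ranked 13 of 8534 probe sets by p. Across all probe sets, 1.78% had every S1P2-KO neocortex array below the WT median.

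Egr2, which is needed for myelination in Schwann cells and is an activity gene in neurons, had signals of 366.1, 632.1 and 1928 in S1P2-KO neocortex, against 423.8, 1617 and 2303 in WT neocortex. One S1P2-KO array, replicate 2, stood at 1928 and the next highest at 714; the other 9 lay below the WT median. The Egr2 difference was -1.08 ± 0.28 (95% CI -1.66 to -0.49, limma adjusted p = 0.209).

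Nr4a1 showed 1256, 2487 and 3108 in S1P2-KO neocortex, against 971.6, 4233 and 5699.5 in WT neocortex, so that the lowest array of all was a WT one although 8 of 10 WT arrays lay above every S1P2-KO array. Its difference was -0.63 ± 0.24 (limma adjusted p = 0.399). Klf10 had 1068, 1525 and 2403 in S1P2-KO neocortex, against 1191, 2536 and 3256 in WT neocortex. Every S1P2-KO array of Klf10 was below the WT median, and the difference was -0.51 ± 0.15 (limma adjusted p = 0.248), or -0.33 ± 0.17 on its second probe set (limma adjusted p = 0.594). Nr4a2 was nearest to WT, with 738.9, 1057 and 1442 in S1P2-KO neocortex, against 999.4, 1313 and 1614 in WT neocortex, and a difference of -0.28 ± 0.13 (limma adjusted p = 0.564), or -0.19 ± 0.12 on its second probe set (limma adjusted p = 0.668).

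In S1P2-KO neocortex, then, 0 of 5 genes were called, as were 0% of all probe sets. At an unadjusted p under 0.05, 5 of 5 were lower by their brighter probe sets, where 4.25% of all probe sets were lower at that level. The second probe sets of Nr4a2 and Klf10 did not reach that level. The median over the 5 genes was -0.57, and the median of all probe sets was -0.0063. Because of how the genes were chosen and how they vary together, the 5 are not separate results. Egr1, not called over all arrays, had a difference of -0.65 and a limma adjusted p = 0.0491 without WT neocortex replicate 6. That array held the lowest WT neocortex signal of Egr1. Over the 20 arrays left out in turn, the limma adjusted p of Egr1 ran from 0.0491 to 0.321. When that 3′ to 5′ ratio entered as covariate, the Egr1 difference was -0.54 (limma adjusted p = 0.291).

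In S1P2-KO hippocampus the gene with the smallest p was Nr4a1. Its signals were 610.3, 998 and 1338 in S1P2-KO, against 815.3, 2102 and 3385 in WT hippocampus. All 10 S1P2-KO arrays lay below the WT median and 8 of 10 WT arrays lay above all of them; 1.41% of all probe sets had every S1P2-KO hippocampus array below the WT median. The Nr4a1 difference was -1.01 ± 0.22 (95% CI -1.47 to -0.56), ranked 3 of 8534 by p, with a limma adjusted p = 0.282. Without WT hippocampus replicate 6, the lowest WT array for Nr4a1, the difference was -1.15, with a limma adjusted p = 0.0494. Over the 20 arrays left out in turn, the limma adjusted p ran from 0.0494 to 0.81.

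Egr2 had 121.1, 215.6 and 313 in S1P2-KO hippocampus, against 186.6, 340.4 and 969 in WT hippocampus, with all S1P2-KO arrays below the WT median and a difference of -0.82 ± 0.25 (limma adjusted p = 0.809). Egr1 had 2003, 2392 and 3956 in S1P2-KO hippocampus, against 2349.8, 3541 and 6409.5 in WT hippocampus; 9 of 10 S1P2-KO arrays lay below the WT median, and the difference was -0.47 ± 0.16 (limma adjusted p = 0.809). Nr4a2 (-0.30 ± 0.21, limma adjusted p = 0.926) and Klf10 (-0.20 ± 0.15, limma adjusted p = 0.93) had intervals that reached past 0. The second probe sets ran the same way, with -0.31 for Nr4a2 and -0.27 for Klf10. In this comparison 0 of 5 genes and 0% of all probe sets were called, and 3 of 5 genes were lower at an unadjusted p under 0.05, against 3.14% of all probe sets.

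In S1P3-KO neocortex, replicates 1 to 5 (2 males, then 3 females) had Egr1 signals of 4299.9, 6002, 9098, 8404 and 8008.5, against a lowest, median and highest of 6297, 10596 and 13971 in WT neocortex. The 2 male arrays lay below every WT array, the 3 female ones inside the WT range, and the difference was -0.53 ± 0.17 (limma adjusted p = 0.258). Nr4a2 had 711.8, 508.1, 1393, 1118.5 and 804.7 in S1P3-KO neocortex, against 999.4, 1313 and 1614 in WT neocortex; 3 of 5 S1P3-KO arrays lay below every WT array. Its difference was -0.59 ± 0.17 (limma adjusted p = 0.189), and its second probe set gave -0.27 ± 0.15 (limma adjusted p = 0.546).

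Klf10 had 1766, 1129.8, 1370.0, 1462 and 1619 in S1P3-KO neocortex, against 1191, 2536 and 3256 in WT neocortex. All 5 S1P3-KO arrays of Klf10 lay below 8 of the 10 WT arrays, and the difference was -0.66 ± 0.19 (95% CI -1.04 to -0.28, limma adjusted p = 0.189). Its second probe set gave -0.42 ± 0.21 (limma adjusted p = 0.489), with an interval reaching past 0. Egr2 had 608.6, 517, 1102, 1218 and 771.1 in S1P3-KO neocortex, against 423.8, 1617 and 2303 in WT neocortex, again with 8 of 10 WT arrays above all of them (-0.71 ± 0.35, limma adjusted p = 0.488). Nr4a1 had 2685, 1840.4, 2038.5, 3475 and 3657 in S1P3-KO neocortex, against 971.6, 4233 and 5699.5 in WT neocortex, and overlapped WT more widely (-0.39 ± 0.29, limma adjusted p = 0.705). S1P3-KO replicate 2 held the lowest or second lowest signal of its group for each of the 5 genes. Of the 5 genes, 0 were called, as were 0% of all probe sets. By their brighter probe sets 3 (Egr1, Nr4a2 and Klf10) were lower at an unadjusted p under 0.05, against 5.16% of all probe sets. The second probe sets of Nr4a2 and Klf10 did not reach that level. Every S1P3-KO neocortex array lay below the WT median for Egr1, Egr2, Nr4a1 and Klf10, as it did for 7.18% of all probe sets.

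In S1P3-KO hippocampus, Egr1 had signals of 1473, 2112, 2527, 2523 and 3426 in replicates 1 to 5, against 2349.8, 3541 and 6409.5 in WT hippocampus. All 5 lay below the WT median, and the difference was -0.61 ± 0.20 (limma adjusted p = 0.335). Egr2 had 203.7, 177.2, 159.9, 209.4 and 297.8 in S1P3-KO hippocampus, against 186.6, 340.4 and 969 in WT hippocampus (-0.79 ± 0.31, limma adjusted p = 0.426). Nr4a1 had 1749, 1038, 1574, 1448.5 and 947.5 in S1P3-KO hippocampus, against 815.3, 2102 and 3385 in WT hippocampus (-0.53 ± 0.27, limma adjusted p = 0.537). For these 3 genes no S1P3-KO array reached the WT median, as held for 5.66% of all probe sets.

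Replicate 5 of this group, the array with the 3′ to 5′ ratio of 4.46, stood at opposite ends for different genes. It had the highest S1P3-KO hippocampus signal of Egr1, Egr2 and Klf10 and the lowest of Nr4a1 and Nr4a2. Nr4a2 had 906.4, 1197, 1183, 1479 and 329.9 in S1P3-KO hippocampus, against 1034, 1366.5 and 2190.1 in WT hippocampus, with replicate 5 far below the other 4. The Nr4a2 difference was -0.62 ± 0.26 with it (limma adjusted p = 0.453) and -0.28 without it (limma adjusted p = 0.785). Klf10 had 1138, 945.6, 1053, 1039 and 1682 in S1P3-KO hippocampus, against 627.5, 1259.6 and 1728 in WT hippocampus, and its difference was -0.07 ± 0.18 with it (limma adjusted p = 0.933) and -0.19 without it. In this comparison 0 of 5 genes were called, against 0.0352% of all probe sets, and 3 of 5 were lower at an unadjusted p under 0.05, against 4.96%.

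**Figure D2:**
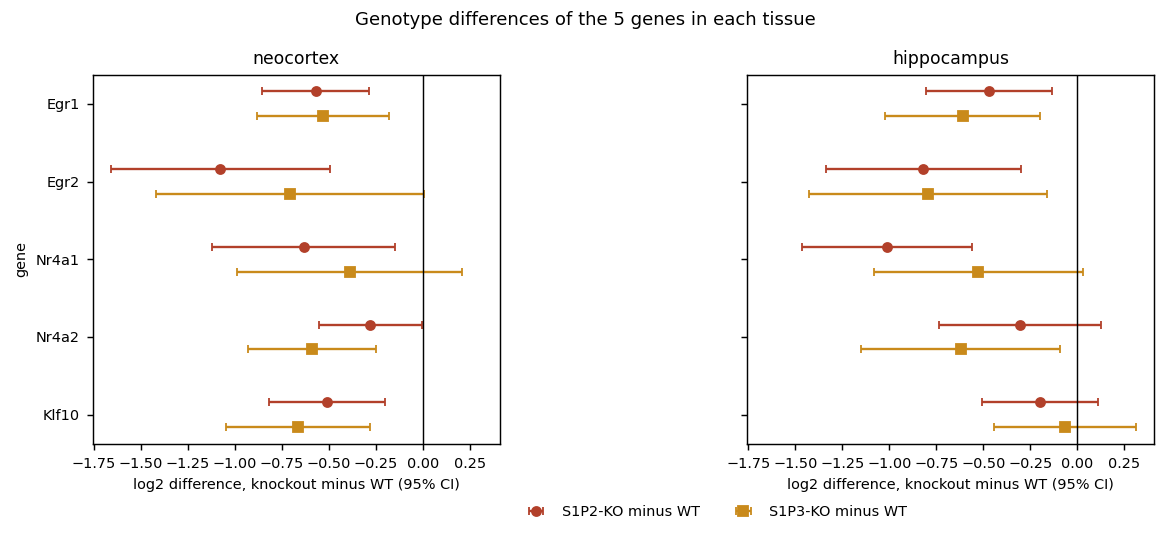
Log2 difference of each gene, knockout minus WT, with its 95% confidence interval from limma, in neocortex (left) and hippocampus (right); circles are S1P2-KO and squares S1P3-KO. All 20 points lie below 0, from -0.07 for Klf10 in S1P3-KO hippocampus to -1.08 for Egr2 in S1P2-KO neocortex, and none passed the adjusted test.

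The design sets the genotype with seizures beside the one without, and for these genes no difference between the knockouts passed the test. S1P2-KO minus S1P3-KO differences in neocortex were -0.04 for Egr1 (95% CI -0.39 to 0.31), -0.37 for Egr2 (95% CI -1.08 to 0.34), -0.24 for Nr4a1 (95% CI -0.84 to 0.35), 0.31 for Nr4a2 (95% CI -0.03 to 0.65) and 0.16 for Klf10 (95% CI -0.23 to 0.54). In hippocampus the interval of Nr4a1 ran from -1.04 to 0.07 around -0.49, the one farthest below 0. At an unadjusted p under 0.05, 0 of the 5 genes differed in either tissue, against 5.93% of all probe sets in neocortex and 11.5% in hippocampus; limma called 0 of 5 genes and 0% of all probe sets.

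Tissue set 4 of the 5 genes apart more than genotype did. Egr1, Egr2 and Nr4a1 were lower in hippocampus than in neocortex in all 3 genotypes, and Klf10 in WT and S1P2-KO mice; Nr4a2 was not called in any. Of the variance over the 50 arrays on the log2 scale, tissue took 73.6% for Egr1, 54.7% for Egr2, 43.9% for Klf10, 39.1% for Nr4a1 and 2.2% for Nr4a2. Genotype within tissue took between 9.4% (Egr1) and 23.2% (Nr4a2), and the arrays of a group among themselves 17% for Egr1 and 74.6% for Nr4a2. The tissues are different extracts and dissections, and the marker sums given above move with this contrast; their part in it was not tested.

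In WT mice Egr1 averaged 3690.3 ± 1296 in hippocampus and 10218 ± 2368 in neocortex (SD, n = 10 each), and the hippocampus minus neocortex difference was -1.50 ± 0.16 (limma adjusted p = 1.7e-10), with 1 hippocampus array above the lowest neocortex one. Egr2 averaged 440.8 ± 276.4 in WT hippocampus and 1521 ± 643.7 in WT neocortex (-1.74 ± 0.28, limma adjusted p = 4.33e-06). Klf10 averaged 1242 ± 344.2 in WT hippocampus and 2407 ± 602.4 in WT neocortex (-0.94 ± 0.16, limma adjusted p = 8.15e-06). Nr4a1 averaged 2113 ± 914.3 in WT hippocampus and 3885 ± 1466 in WT neocortex (-0.86 ± 0.24, limma adjusted p = 0.0091). Nr4a2 alone was not called, with 1476 ± 391.9 in WT hippocampus and 1293 ± 189.6 in WT neocortex (0.16 ± 0.18, limma adjusted p = 0.639). That made 4 of 5 genes called in WT, against 14.6% of all probe sets, and 6.74% called lower.

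In S1P2-KO mice the same 4 genes were called lower, against 14.7% of all probe sets called and 7.09% called lower. Egr1 differed by -1.40 ± 0.16 (limma adjusted p = 1.2e-09) and Egr2 by -1.49 ± 0.28 (limma adjusted p = 7.45e-05). Every S1P2-KO hippocampus array lay below every S1P2-KO neocortex array for both Egr1 and Egr2, as it did, in either direction, for 3.45% of all probe sets. In S1P3-KO mice 3 genes were called lower, against 12% of all probe sets called and 6% called lower: Egr1 by -1.58 ± 0.23 (limma adjusted p = 7.36e-07), Egr2 by -1.83 ± 0.40 (limma adjusted p = 0.000933) and Nr4a1 by -1.0002 ± 0.3436 (limma adjusted p = 0.047). The Nr4a1 call did not hold once the 3 arrays with a ratio above 1 were left out (-0.89, limma adjusted p = 0.125). When each S1P3-KO array was left out in turn, 6 of 10 arrays ended the call, with limma adjusted p-values of 0.0516 to 0.138; these were hippocampus replicates 2 and 5 and neocortex replicates 1, 3, 4 and 5. Klf10 differed by -0.34 ± 0.22 in S1P3-KO mice (limma adjusted p = 0.35), and by -0.54 ± 0.23 on its second probe set (limma adjusted p = 0.116). Differences within each replicate number were also fitted, a setting chosen after the data were seen. In S1P3-KO mice Nr4a1 then had a limma adjusted p = 0.000426. Klf10 had a limma adjusted p = 0.0584, and 0.0176 on its second probe set. That fit called 15.5% of all probe sets.

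Whether a genotype difference was itself larger in one tissue was tested by the interaction. For none of the 5 genes did it pass (limma, 0 called and 0% of all probe sets called for either knockout). Klf10 had the smallest p, with an S1P3-KO minus WT difference of -0.07 in hippocampus and -0.66 in neocortex and an interaction of 0.60 ± 0.27 (limma adjusted p = 0.875). Its second probe set gave 0.20 ± 0.28 (limma adjusted p = 0.949). By its brighter probe set Klf10 was the 1 gene of 5 higher at an unadjusted p under 0.05 for S1P3-KO, against 2.39% of all probe sets. That fit takes same-numbered arrays of the tissues as independent, and the labels do not say whether they share a mouse. Taken within each number, a setting chosen after the data were seen, the Klf10 hippocampus minus neocortex difference ran from -0.62 to 0.05 in S1P3-KO (highest in replicate 5, with the 3′ to 5′ ratio of 4.46) and from -1.43 to -0.68 in WT, with no overlap, as held for 0.0586% of all probe sets. A limma fit of these differences gave an interaction of 0.60 ± 0.15 (95% CI 0.29 to 0.91, adjusted p = 0.352) and called 0 of 5 genes. On the second Klf10 probe set the ranges overlapped, with -1.04 to -0.20 in S1P3-KO and -1.17 to -0.21 in WT.

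By order of group means, Egr1, Egr2, Nr4a1 and Klf10 ran alike: WT neocortex was highest, both knockout neocortex groups came next, then WT hippocampus, and both knockout hippocampus groups were lowest. Neighbours in that order were often within the spread of arrays: knockout neocortex groups differed from each other by less than 1 SD for each of these 4 genes, and so did the knockout hippocampus groups for Egr1, Egr2 and Klf10. Nr4a2 was ordered by genotype instead, with both WT groups first (1476 ± 391.9 in hippocampus, 1293 ± 189.6 in neocortex), both S1P2-KO groups next (1200.5 ± 339.2 and 1075 ± 244.4) and both S1P3-KO groups last (1019 ± 435.3 and 907.3 ± 349.6), steps that lie within 1 SD of their neighbours. By medians this order did not hold, with 1183 in S1P3-KO hippocampus and 1057 in S1P2-KO neocortex. The S1P3-KO hippocampus mean includes replicate 5 (329.9), the array with the 3′ to 5′ ratio of 4.46.

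No difference between females and males passed the test for any of the 5 genes. Female minus male differences ran from -0.21 (Egr2) to 0.23 (Nr4a2) in neocortex and from -0.10 (Nr4a2) to 0.25 (Egr1) in hippocampus, with limma adjusted p-values of 0.807 or more; none of the 5 was called or reached an unadjusted p under 0.05 in either tissue (0 of 5), against 0.0586% of all probe sets called and 6.15% and 5.13% at the unadjusted level in neocortex and hippocampus. The S1P3-KO difference in neocortex was nominally larger in males. Egr1 averaged 8503 ± 551.6 in S1P3-KO females (SD, n = 3) and 5151 ± 1204 in S1P3-KO males (SD, n = 2), beside 9924 ± 3386 in WT females and 10511 ± 966.1 in WT males (SD, n = 5 each). The female minus male interaction was 0.89 ± 0.31 for Egr1 (limma adjusted p = 0.132) and 0.87 ± 0.30 for Nr4a2 (limma adjusted p = 0.127). The second Nr4a2 probe set gave 0.32 ± 0.30 (limma adjusted p = 0.618), not past an unadjusted p under 0.05. Klf10 had 0.32 ± 0.37 (limma adjusted p = 0.702), and 0.89 ± 0.39 on its second probe set (limma adjusted p = 0.24). Egr2 (1.62 ± 0.65) and Nr4a1 (1.17 ± 0.55) ran the same way, which made 4 of 5 genes higher at an unadjusted p under 0.05, against 8.52% of all probe sets; 0 of 5 were called, against 1.22% of all probe sets. S1P3-KO males numbered 2. With 1 array left out, the Egr2 interaction was 1.36 without WT replicate 6 and 1.32 without WT replicate 7, and that of Nr4a1 was 0.81 and 1.06; the Klf10 one was 0.12 without WT replicate 6. Without S1P3-KO male replicates 1 and 2 in turn, the Egr2 interaction was 1.73 and 1.51, that of Egr1 0.65 and 1.13, that of Nr4a1 1.44 and 0.90, and that of Nr4a2 1.102 and 0.64. The Klf10 interaction moved most, to 0.64 when the first of these males was left out and to 0.0054 when the other was. The corresponding S1P2-KO interactions in neocortex were called for 0 of 5 genes and 0% of all probe sets (limma; 0 of 5 at an unadjusted p under 0.05, against 7.71%). In hippocampus these interactions were called for 0 of 5 genes in either knockout, against 0% of all probe sets for S1P2-KO and 0.0469% for S1P3-KO.

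Arrays of a group that were high for one gene tended to be high for the others. After genotype and sex were removed, the Pearson r over the 25 neocortex arrays was 0.85 between Egr1 and Egr2 and 0.809 between Nr4a1 and Klf10 (Spearman rho 0.842 and 0.602). Of the 10 gene pairs in neocortex, 9 had an adjusted permutation p under 0.05 by Pearson r and 7 by rank, with Benjamini-Hochberg adjustment over the 20 relations of both tissues. In hippocampus 5 of 10 pairs passed by Pearson r, and 4 by rank, led by Egr1 with Egr2 (r = 0.75, rho = 0.722) and Egr2 with Nr4a1 (r = 0.673, rho = 0.658). Without the 2 arrays farthest from the median of the first gene of a pair, Egr1 with Egr2 had r = 0.839 in neocortex (adjusted permutation p = 0.0006) and 0.742 in hippocampus (adjusted permutation p = 0.0025). Without those 2 arrays 6 of 10 pairs passed in neocortex and 4 of 10 in hippocampus. The pairs that no longer passed in neocortex were Egr2 with Klf10 (r = 0.285, against 0.572 over all arrays, adjusted permutation p = 0.318), Egr2 with Nr4a2 (0.41, against 0.539, adjusted permutation p = 0.123) and Nr4a1 with Nr4a2, whose r hardly moved (0.434, against 0.431, adjusted permutation p = 0.0986). In hippocampus they were Nr4a1 with Klf10 (r = 0.24, against 0.529, adjusted permutation p = 0.326), Egr1 with Nr4a1 (0.423, against 0.56) and Egr1 with Klf10 (0.429, against 0.541, adjusted permutation p = 0.123 for both). Of these, Egr2 with Klf10 in neocortex and Nr4a1 with Klf10 in hippocampus had the largest drops in r. Within single genotypes, Egr2 with Klf10 in neocortex had r = 0.136 in S1P2-KO and 0.945 in WT (n = 10 each). Nr4a1 with Klf10 in hippocampus had r = 0.811 in S1P2-KO and 0.612 in WT. In hippocampus 2 other pairs passed only without the 2 arrays farthest from the median. These were Egr2 with Klf10 (r = 0.542, against 0.384, adjusted permutation p = 0.0252) and Nr4a2 with Klf10 (0.494, against 0.161, adjusted permutation p = 0.0387).

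Over all 25 hippocampus arrays Nr4a2 had the lowest correlations, with r of 0.0553 to Egr1, -0.0643 to Egr2, 0.332 to Nr4a1 and 0.161 to Klf10. After removal of these 3 arrays with a 3′ to 5′ ratio above 1, a setting chosen after the data were seen, Nr4a2 correlated with Klf10 at r = 0.58, with Egr1 at 0.395 and with Egr2 at 0.088 (n = 22). Within the WT group of 10 neocortex arrays the pairs ran from 0.591 to 0.986 and within S1P2-KO neocortex from 0.136 to 0.684. Within the 10 S1P2-KO hippocampus arrays Nr4a2 had r of 0.555 to Egr1, 0.381 to Egr2, 0.511 to Nr4a1 and 0.676 to Klf10, where Egr1 with Nr4a1 had 0.097. Within WT hippocampus its r was 0.654 to Klf10 and -0.062 to 0.227 to the other 3 genes.

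**Figure D3:**
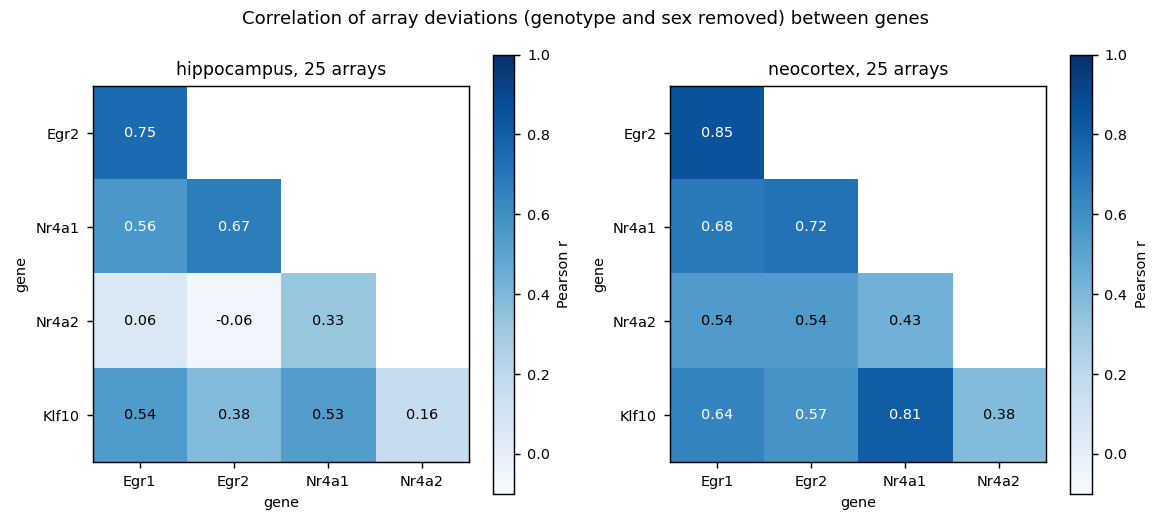
Pearson r between genes over the 25 arrays of hippocampus (left) and of neocortex (right), computed on log2 signals with genotype and sex removed; darker cells are higher r. Egr1 with Egr2 is the darkest cell in both tissues (0.75 and 0.85), and the Nr4a2 row is pale in hippocampus.

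WT replicates 6 and 7, both female, stood low together. Their neocortex arrays held the 2 lowest of 10 WT signals for all 5 genes, and their hippocampus arrays held the 2 lowest for Egr1, Nr4a1 and Klf10. The same arrays were the 2 lowest WT arrays for Fos (1052 and 1125 in neocortex, 356.5 and 439.5 in hippocampus) and for Junb, genes looked up after their values were seen. Dusp1 and Nab2 were looked up too: both arrays were the 2 lowest for Dusp1 in neocortex but ranked 3 and 5 of 10 in hippocampus, and they were the 2 lowest for Nab2 in both tissues. The summed signal of 7 neuron markers ranked 3 and 4 from the lowest of 10 on these neocortex arrays (97847 and 100894, in a WT range of 93406 to 115543) and 2 and 3 on the hippocampus ones (83926 and 84056.5, in a WT range of 79509 to 95167.5). Single neuron markers went both ways: Snap25 was lowest on replicate 6 in both tissues, and Syt1 highest. The part of these markers in the low signals was not tested. The 3′ to 5′ ratios of WT replicates 6 and 7, from 0.261 to 0.382, lay within the range of the other WT arrays or just below it.

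Arrays with the same number in both tissues deviated alike for 4 genes. Over 25 pairs, with genotype and sex removed, r was 0.792 for Egr1 (adjusted permutation p = 0.0001, rho = 0.75), 0.73 for Klf10 (0.000175, rho = 0.536), 0.695 for Nr4a1 (0.000617, rho = 0.576) and 0.508 for Egr2 (0.0224, rho = 0.504), adjusted over the 5 genes. Nr4a2 had r = 0.319 (adjusted permutation p = 0.219). Without the 2 outermost pairs r was 0.717 for Egr1, 0.523 for Klf10, 0.526 for Nr4a1 and 0.354 for Egr2, whose adjusted permutation p of 0.05 then no longer passed. Within WT the r over 10 pairs was 0.877 for Egr1, and within S1P2-KO it was 0.671. On another measure, the correlation across all probe sets between the deviations of same-numbered arrays of the 2 tissues, values ran from -0.058 to 0.257. Their median was 0.105, and 13 of 25 lay above 0.1. Among the 10 or 5 neocortex arrays of its genotype, the one most alike had the same number for 7 of 25 hippocampus arrays.

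**Figure D4:**
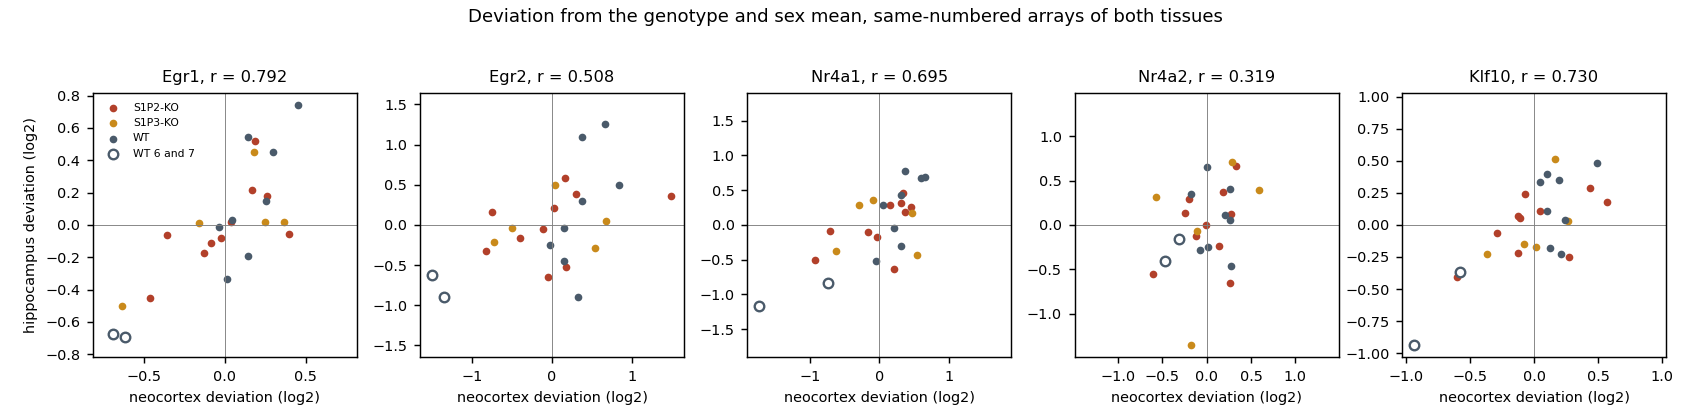
Deviation of each array from its genotype and sex mean, in log2 units, for the hippocampus array (vertical) against the neocortex array of the same number (horizontal), 25 pairs per gene. WT replicates 6 and 7 (open circles) lie at the lower left for Egr1, Egr2, Nr4a1 and Klf10, and Nr4a2 (r = 0.319) shows the loosest relation of the 5.

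The genes most like each member, by r of log2 deviations over all 50 arrays with group and sex removed, were mostly immediate early genes. Egr1 was most like Egr2 (0.793), Fos (0.78) and Junb (0.628), Egr2 like Fos (0.824), Egr1 (0.793) and Dusp1 (0.705), and Nr4a1 like Fos (0.769), Dusp1 (0.764) and Ier2 (0.743). Fos and Junb encode AP-1 subunits, Dusp1 a phosphatase that switches MAP kinases off, and Ier2 another early-response protein. Klf10 was most like Gpr19 (0.712), an orphan receptor gene, then Nr4a1 (0.682) and Fos (0.606). Nr4a2 was most like Meg3 (0.755), Rab6a (0.741) and Smarcc1 (0.735), none of them an immediate early gene. The 99th percentile of r over all genes was 0.626 for Nr4a2 and 0.4 to 0.436 for the other members. Without the 3 arrays with a 3′ to 5′ ratio above 1, the Nr4a2 list became Midn (0.627), Smarcc1 (0.614) and Gpd2 (0.61), with a 99th percentile of 0.475. Its own second probe set then stood at 0.467, against 0.637 over all 50 arrays. Its r to the other members was then 0.475 (Klf10), 0.462 (Egr1), 0.382 (Nr4a1) and 0.338 (Egr2). The second Klf10 probe set stood at 0.797 over all arrays and 0.789 without those 3.

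Among other immediate early genes, 27 of the 41 listed were tested, a list chosen with earlier results of these data known. In S1P2-KO neocortex 22 were lower and 5 higher than in WT, with a median of -0.23 against -0.007 for all genes; 11 of 27 were lower and 0 higher at an unadjusted p under 0.05, against 4.25% of all probe sets lower, and 0 were called. Fos, whose product pairs with Jun proteins, had a median signal of 1093 in S1P2-KO neocortex (378.2 to 2539), against 2833 in WT neocortex (1051.5 to 5739), and a difference of -1.32 ± 0.27 (limma adjusted p = 0.0764). Fosb (-0.57 ± 0.16, limma adjusted p = 0.235) and Dusp1 (-0.64 ± 0.20, limma adjusted p = 0.298) lay near the values of Egr1 and Nr4a1. In S1P3-KO neocortex 17 were lower and 10 higher (median -0.08), in S1P2-KO hippocampus 20 and 7 (-0.16), and in S1P3-KO hippocampus 21 and 6 (-0.22), with 0 called in each. At an unadjusted p under 0.05, 1 of 27 was lower in S1P3-KO neocortex (5.16% of all probe sets), 3 in S1P2-KO hippocampus (3.14%) and 5 in S1P3-KO hippocampus (4.96%), and 0 were higher. Fos was the largest difference among those named in S1P3-KO neocortex (-1.001 ± 0.337, limma adjusted p = 0.268) and S1P2-KO hippocampus (-1.23 ± 0.28, limma adjusted p = 0.404).

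Close relatives and partners (11 tested of 18) were split, with 7 lower and 4 higher in S1P2-KO neocortex (median -0.034). Of these, Nab2, the co-repressor that Egr proteins induce, had a median of 1767 in S1P2-KO neocortex (1256 to 1953), against 2324 in WT neocortex (1731 to 3284), and a difference of -0.47 ± 0.12 (limma adjusted p = 0.194). Nab1 differed by -0.23 ± 0.08 there (limma adjusted p = 0.341). The relatives' medians were -0.17 in S1P3-KO neocortex, 0.026 in S1P2-KO hippocampus and -0.295 in S1P3-KO hippocampus. Klf13 had the largest difference named in S1P3-KO hippocampus (-0.995 ± 0.552, limma adjusted p = 0.563). That group includes replicate 5, the array with the 3′ to 5′ ratio of 4.46. Upstream kinases and factors (23 of 45) had medians of -0.056, 0.036, -0.06 and -0.096 in S1P2-KO and S1P3-KO neocortex and S1P2-KO and S1P3-KO hippocampus. In S1P2-KO neocortex Elk1, a partner of serum response factor, stood at 0.54 ± 0.16 (limma adjusted p = 0.245). Genes known as targets of the 5 factors (14 of 20) had medians of 0.023, 0.004, -0.074 and -0.15 in the same order, with 7 of 14 lower in S1P2-KO neocortex. No gene of these 3 lists was called in any knockout comparison with WT.

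**Figure D5:**
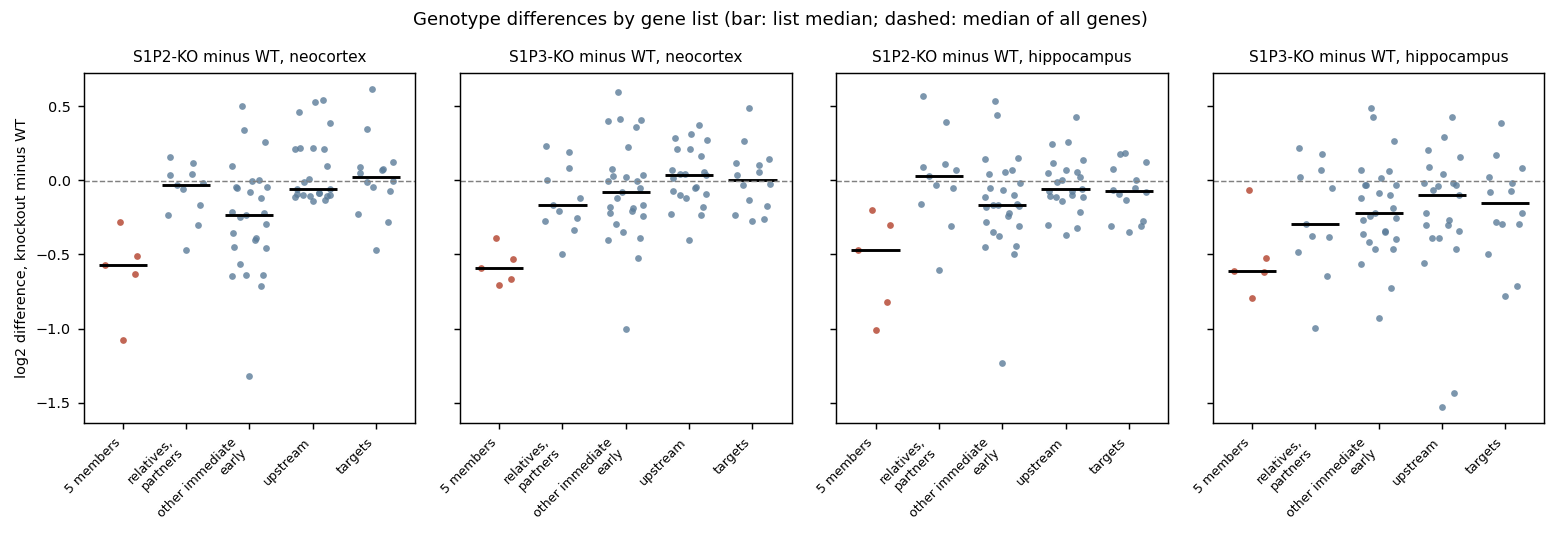
Log2 differences, knockout minus WT, of the 5 genes (red) and of each listed gene tested (blue), in the 4 comparisons; bars are list medians and the dashed line is the median of all genes. In S1P2-KO neocortex the medians are -0.57 for the 5 genes, -0.23 for other immediate early genes and 0.023 for target genes.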

How the data were processed

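The authors deposited a linear intensity for every probe set on each array. The submitters' processing notes name MAS5, whose version is not given in the sources used here. The deposited intensities were already scaled (mean after trimming 2% at either end 999.79 to 999.82 on all 50 arrays) and were not rescaled. Detection calls were not used. Arrays have no read depth, and their number limits the precision. Per the labels' protocols, 12 µg of total RNA was used per array.

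Groups, sexes and replicate numbers came from the titles. These describe biological replicates; separate mice are not otherwise stated, so p-values measure the spread between these samples. The design text lists group sizes in another order and names S1P2-deficient mice a second time in place of S1P3-deficient ones, so the titles were followed. Of 12488 probe sets, 10855 had 1 gene symbol in the platform table, 396 several and 1237 none. Analysis used log2(signal + 30.7), the added value being the 10th percentile of signals, which understates differences of dim genes. Tested were 8534 probe sets of 6350 genes, after removal of 66 control probe sets and of those whose mean log2 lay below the 30th percentile of signals (132.6).

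limma 3.58.1 in R 4.3.3 (lmFit, eBayes with trend) was fitted per tissue with sex as a covariate, over all 50 arrays for tissue contrasts, and with genotype by sex terms for the sexes. Correlations used two-sided permutation tests of 100000 resamples. A gene stands by its brighter probe set. Named by rule were the genes of each list with the smallest p and the 3 genes most like each member. Alternatives changed the pseudocount, filter, normalization, moderation, array weights, ratio covariate, probe set, samples and replicate block; differences between tissues within each replicate number were added after the data were seen. The members, lists and tests were chosen with earlier results of these data known, and the fit was tested on simulated data.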

Additional observations from a re-analysis of the deposited data

Results flagged for a closer look

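Of 48 groups of arrays and member probe sets examined for a value far from the others, 2 held one; chance alone gives about 1 in 20 groups. Egr2 in S1P2-KO neocortex stood at 1927.6 on replicate 2, a male, and next highest at 714 among the other 9 arrays. The gap was 0.777 of the group's range, against a critical value of 0.466. The same array was the highest of its group for Egr1 too. Klf10 in S1P3-KO hippocampus stood at 1681.6 on replicate 5, and next highest at 1138, a gap of 0.739 of the range, against a critical value of 0.71. That array had the 3′ to 5′ ratio of 4.46. None of 42 genotype interactions with tissue or sex among the member probe sets passed the limma threshold.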

How the results depend on the processing

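The dim second Egr1 probe set aside, all 5 genes stayed lower than WT in both knockouts and both tissues. That held under every other setting tried (12 or 13 per gene) and with each array left out. No member was called in these comparisons, except under the settings named next; the cause of each change was not tested. Members called numbered 1 in S1P2-KO neocortex without WT replicate 6 (range 0 to 1 over arrays left out) and 1 in S1P2-KO hippocampus without WT replicate 6 (0 to 1). With the replicate number as a block, 1 member was called in S1P2-KO neocortex (Egr1, limma adjusted p = 0.025) and 2 in S1P3-KO neocortex (Egr1, 0.018, and Nr4a2, 0.0327). The S1P3-KO neocortex differences were then -0.9768 for Egr1 (-0.53 without the block), -1.5776 for Egr2 (-0.71), -0.7323 for Nr4a1 (-0.39) and -1.0467 for Nr4a2 (-0.59). By the construction of that fit they come from S1P3-KO males 1 and 2 alone (weight 0.5 each), since numbers 3 to 5 are female in S1P3-KO and male in the other genotypes and take weight 0 beside the sex term. The labels do not say whether the numbers pair the genotypes, and this was not tested. Deviations of same-numbered knockout and WT arrays correlated above 0.1 for 0 of 15 pairs in neocortex and 4 of 15 in hippocampus. Those 4 were among the 10 S1P2-KO pairs, all female: replicates 6 (0.104), 7 (0.105), 8 (0.157) and 10 (0.164). The median over the 10 was 0.01. The block turned 3 S1P2-KO minus S1P3-KO differences in neocortex, to 0.4069 for Egr1, 0.5017 for Egr2 and 0.0999 for Nr4a1.

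Differences between tissues within each number, a setting chosen after the data were seen, left the number of members called as it was in each genotype (4 in S1P2-KO, 3 in S1P3-KO and 4 in WT) and at 0 for both interactions. These counts are by brighter probe sets. In S1P3-KO mice the second Klf10 probe set was called there (limma adjusted p = 0.0176) and the brighter one was not (0.0584). Nr4a1 had a limma adjusted p = 0.000426 in that setting. The call on Nr4a1 between tissues in S1P3-KO mice was lost with the 3′ to 5′ ratio as covariate (limma adjusted p = 0.11), array weights (0.0792), eBayes without trend (0.0569), no filter (0.0646), quantile normalization (0.0502) and without the 3 arrays of ratio above 1 (0.125).

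The other sign changes were in differences that no setting called. Without the 3 arrays, S1P2-KO minus S1P3-KO in hippocampus was 0.165 for Egr2 and 0.0198 for Klf10; female minus male in hippocampus was 0.0679 for Egr2, 0.0538 for Nr4a1 and 0.0556 for Nr4a2; the hippocampus minus neocortex effect was 0.0263 for Nr4a2 in S1P2-KO and, in S1P3-KO, 0.0636 for Nr4a1 and 0.2884 for Nr4a2; and the S1P3-KO female minus male effect in hippocampus was 0.2543 for Nr4a2. With array weights, the same quantities were 0.106 for Egr2 and 0.0254 for Klf10, 0.0037 for Egr2 between sexes, and 0.032 (S1P2-KO) and 0.2262 (S1P3-KO) for Nr4a2 between tissues. With the ratio covariate, S1P2-KO minus S1P3-KO in hippocampus was 0.1299 for Egr2 and -0.0458 for Nr4a2, the S1P3-KO tissue effect 0.3281 and sex effect 0.3645 for Nr4a2. Quantile normalization gave 0.0209 for Egr2 between sexes and S1P3-KO tissue effects of 0.0571 for Egr2 and 0.0253 for Nr4a2. Nr4a2 between tissues in S1P3-KO was -0.0232 as a mean of its probe sets and -0.1749 on its other one.

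With arrays left out, sign changes gave these ranges. S1P2-KO minus S1P3-KO ran from -0.0006 to 0.2546 (Egr1), -0.0988 to 0.0996 (Egr2) and -0.0219 to 0.4945 (Nr4a2) in hippocampus, and from -0.2197 to 0.0508 for Egr1 in neocortex. The S1P3-KO tissue effect ran from -0.2591 to 0.0622 (Egr1), -0.2932 to 0.1 (Egr2), -0.3141 to 0.0803 (Nr4a1) and -0.2086 to 0.3079 (Nr4a2), and that of S1P2-KO from -0.1018 to 0.0525 (Nr4a2). The sex effect of S1P2-KO in neocortex ran from -0.0104 to 0.2761 (Egr1), that of S1P3-KO in hippocampus from -0.1168 to 0.6187 (Nr4a1) and -0.8149 to 0.2181 (Nr4a2). Female minus male ran from -0.0065 to 0.1417 (Egr1) and -0.0776 to 0.0665 (Klf10) in neocortex, and from -0.1371 to 0.0654 (Egr2), -0.1405 to 0.0337 (Nr4a1) and -0.1618 to 0.0136 (Nr4a2) in hippocampus. Nr4a2 between tissues in S1P3-KO ran from -0.0499 to 0.4666.

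Over all probe sets, calls against WT numbered 0 in S1P2-KO neocortex, 8 with the block or array weights and 0 to 8 with arrays left out; 0 in S1P3-KO neocortex, 87 with the block, 22 with the ratio covariate and 0 to 10 with arrays left out; and 3 in S1P3-KO hippocampus, 0 to 12 with arrays left out. S1P2-KO against S1P3-KO neocortex gave 0, and 47 with the block. Calls between tissues in S1P3-KO mice numbered 1023, against 632 to 1324 under other settings. S1P3-KO sex effects numbered 104 in neocortex, 22 to 206 with arrays left out, and 4 in hippocampus, 0 to 141 with arrays left out.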
